A study of Mus musculus with 23 samples.

Results

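Expression of the genes that dock, prime and fuse synaptic vesicles was followed in the nucleus accumbens of mice 1 h after a single injection. The genes were taken by symbol: synaptotagmins and synaptotagmin-like proteins (Syt), syntaxins (Stx), syntaxin-binding proteins (Stxbp), SNAP proteins (Snap2), VAMPs, complexins (Cplx), SV2 glycoproteins, synapsins (Syn1 to Syn3), RIM proteins (Rims), Munc13 proteins (Unc13) and Nsf. The array names 70 such genes through 140 probes. Of these, 49 genes and 78 probes were detected on at least 5 arrays at a detection p under 0.01 and were tested, out of 10138 genes and 18509 probes tested in all. The 21 untested genes included Snap25, Unc13a, Rims4, Sv2c, Cplx3 and Syt2, and 19 of the 21 were detected on 0 arrays by every probe. No difference between groups was therefore measurable for these 19, and whether their transcripts were absent was not tested. The other untested genes, Stx19 and Sytl5, were detected on at most 2 and 3 arrays and fell short of the filter.

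The animals were C57BL6 mice of both sexes, either heterozygous for Foxp2 S321X, a premature stop codon in a forkhead transcription factor of striatal neurons, or wild-type littermates. The allele is not restricted to a cell type, the second Foxp2 copy is intact, and the sources used here do not state the animals' age. Tissue punches were taken 1 h after an intraperitoneal injection, and each array holds 1 biological replicate. The groups were 6 heterozygotes given cocaine at 15 mg/kg, 5 heterozygotes given saline, 6 wild-type mice given cocaine at 15 mg/kg and 6 wild-type mice given saline.

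A synaptic vesicle fuses when a SNARE protein on the vesicle (a VAMP) zips together with SNARE proteins on the plasma membrane (a syntaxin and a SNAP protein). RIM and Munc13 proteins of the active zone tether the vesicle and open syntaxin for assembly, synaptotagmins sense calcium and trigger fusion, complexins clamp the half-formed complex, and NSF takes it apart afterwards for reuse. In the nucleus accumbens this machinery sits in the terminals of dopamine, glutamate and local GABA neurons, whereas its mRNA lies largely in cell bodies.

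Between 16102 and 17933 probes were detected per array, and the number of arrays limits the precision. The 16 striatal projection markers tested, including Drd1, Drd2 and Ppp1r1b, were detected on all 23 arrays. The 3 Foxp2 probes stood at 61.0%, 61.6% and 69.2% of wild type in heterozygotes after cocaine and at 65.7%, 68.2% and 71.5% after saline, without passing the test (adjusted p of 0.7079 or more, limma). They measure the transcript and do not read the stop codon. The heterozygous cocaine arrays 9, 16 and 19 (arrays are numbered as in the raw table) lay highest on the first principal component, which held 15.7% of the variance. They ran from 27.33 to 31.66, above wild-type cocaine arrays 24 at 18.78 and 13 at 10.46, and were picked by the largest gap. Saline arrays reached at most 1.23 on this component. Markers of excitatory cortical neurons and of striatal projection neurons also differed between the injections. The excitatory score, the mean log2 deviation of 9 tested markers from their mean over all arrays, ranged from -0.15 to 1.03 on heterozygous cocaine arrays, from -1.24 to 0.01 on heterozygous saline arrays, from -0.35 to 0.61 on wild-type cocaine arrays and from -0.69 to -0.02 on wild-type saline arrays. The striatal score ran from -0.70 to 0.02, from 0.04 to 0.25, from -0.24 to 0.18 and from 0.11 to 0.31 in the same 4 groups. Of the excitatory markers other than Neurod1, 5 of 8 were higher after cocaine on average, and of the striatal markers 10 of 16 were lower. Neurod1, a cortical transcription factor, was detected on 4 of 6 heterozygous cocaine, 0 of 5 heterozygous saline, 4 of 6 wild-type cocaine and 0 of 6 wild-type saline arrays, so that it entered the fit through the cocaine arrays. The 8 other excitatory markers were detected in every group. Of 8 interneuron markers tested, 2 were higher (Vip at 1.13 ± 0.22 and Npy at 0.26 ± 0.07) and 0 were lower on average. All 8 had an unadjusted p under 0.05, 5 of them with a positive difference, and the lowest difference was -0.50. In heterozygotes Vip was higher (1.47 ± 0.32) and Slc5a7 was lower (-0.91 ± 0.22). Of the 2 choroid plexus markers tested Kl was lower (-0.46 ± 0.12), and Clic6 was lower in heterozygotes (-0.78 ± 0.21).

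Cocaine against saline, averaged over the genotypes, asked which fusion genes differed 1 h after the drug. Of the 49 genes tested, 8 were higher and 1 was lower on the 12 cocaine arrays than on the 11 saline arrays, and 40 did not pass (limma, Benjamini-Hochberg adjusted p under 0.05). The background over all genes was 4.45% called, 3.16% higher and 1.29% lower. The genes that rose were Syt13, Syt17, Sytl2, Stx1a, Stxbp5, Syn1, Rims1 and Unc13b, and the gene that fell was Syt12. The median log2 difference of the 49 genes was 0.05, beside -0.01 over all genes tested, and 19 of the 49 had an unadjusted p under 0.05, beside 1949 of all 10138 genes. In bulk tissue, fewer cells of a type and less RNA per cell cannot be told apart.

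**Figure D1:**
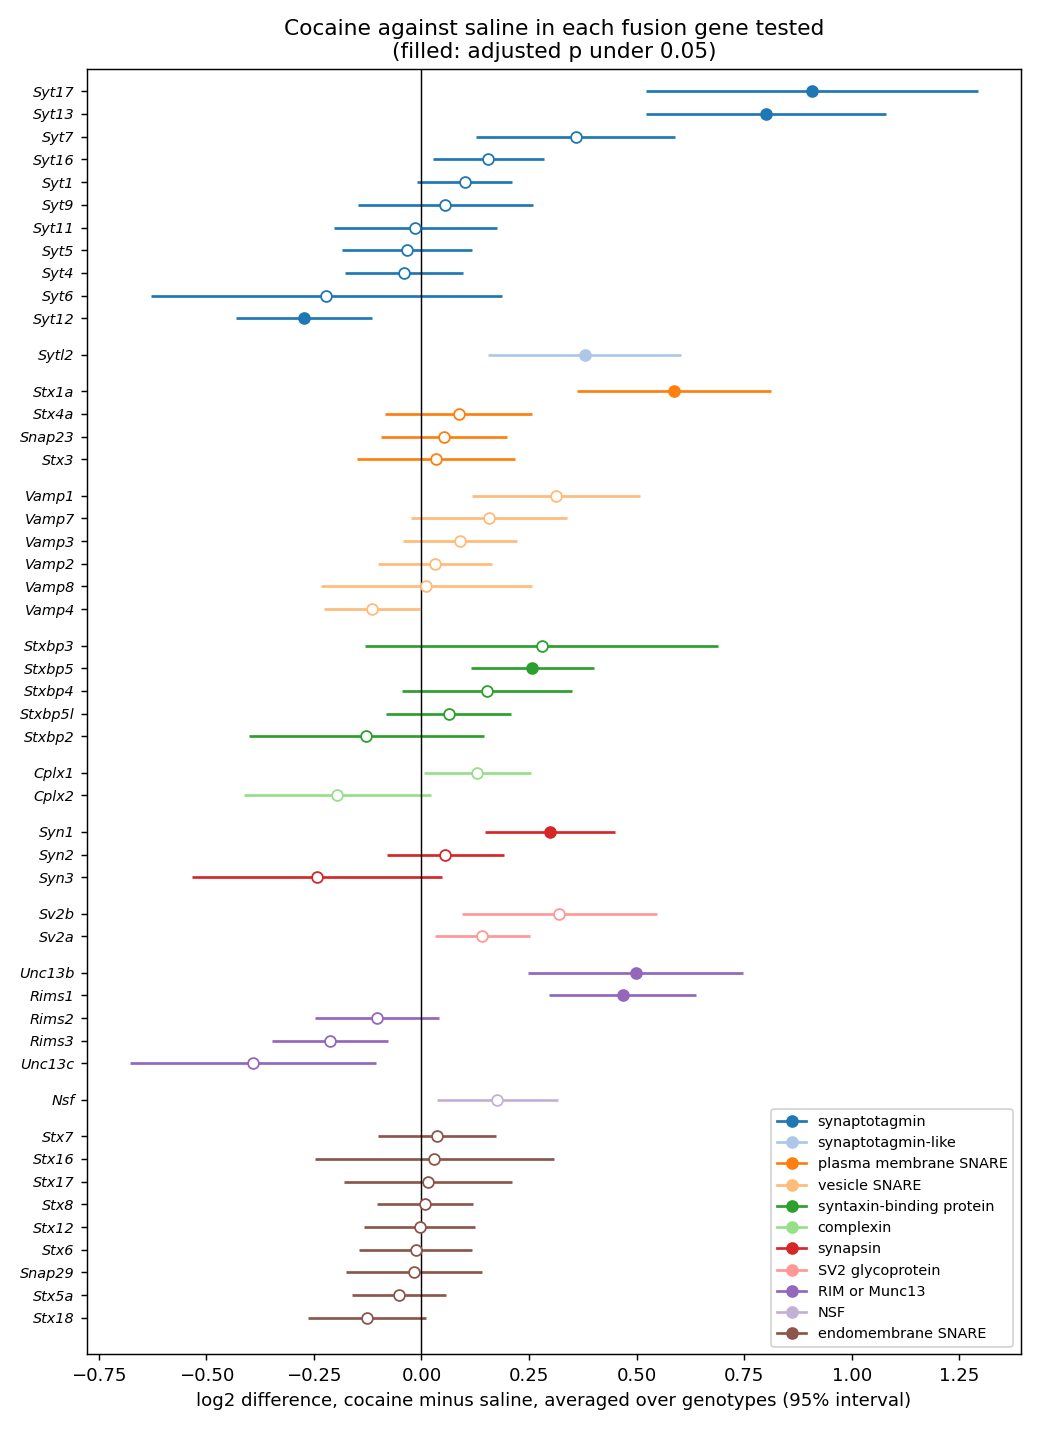
Log2 difference (cocaine minus saline, averaged over genotypes) of the 49 fusion genes tested, grouped by role, with 95% intervals; filled points passed the test. The 8 filled points to the right of 0 run from 0.26 for Stxbp5 to 0.91 for Syt17, Syt12 lies at -0.27, and the endomembrane SNAREs at the bottom lie between -0.13 and 0.04.

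The promoters of 4 called genes are printed because they differ in the short motifs they hold for activity-regulated transcription factors. RefSeq promoters (GRCm38.p6, from 250 bases before to 50 bases after a listed start) were matched by gene for 37 of the 49 genes, through 48 promoters. Capitals mark a motif match, and each sequence runs 5′ to 3′ on the gene's own strand. Syn1 lies at chrX:20920869-20921168 (minus strand), Stxbp5 at chr10:9900991-9901290 (minus strand), Rims1 at chr1:22806109-22806408 (minus strand) and Stx1a at chr5:135023232-135023531 (plus strand).
Syn1: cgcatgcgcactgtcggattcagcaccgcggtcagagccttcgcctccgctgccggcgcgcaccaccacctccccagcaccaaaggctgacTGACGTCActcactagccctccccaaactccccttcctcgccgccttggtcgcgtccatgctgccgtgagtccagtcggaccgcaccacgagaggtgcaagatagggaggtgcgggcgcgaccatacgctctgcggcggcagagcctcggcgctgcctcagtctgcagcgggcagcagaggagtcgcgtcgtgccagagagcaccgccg
Stxbp5: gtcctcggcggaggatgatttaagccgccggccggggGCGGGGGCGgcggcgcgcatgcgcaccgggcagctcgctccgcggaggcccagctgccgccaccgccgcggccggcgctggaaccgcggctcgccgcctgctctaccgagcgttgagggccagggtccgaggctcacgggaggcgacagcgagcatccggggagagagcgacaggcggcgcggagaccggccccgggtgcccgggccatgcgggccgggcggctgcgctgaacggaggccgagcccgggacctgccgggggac
Rims1: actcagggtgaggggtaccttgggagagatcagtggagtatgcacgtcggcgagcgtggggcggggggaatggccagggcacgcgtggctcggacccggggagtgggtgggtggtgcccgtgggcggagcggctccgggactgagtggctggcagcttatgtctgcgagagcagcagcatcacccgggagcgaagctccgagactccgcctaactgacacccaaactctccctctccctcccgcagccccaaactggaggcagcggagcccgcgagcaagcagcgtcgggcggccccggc
Stx1a: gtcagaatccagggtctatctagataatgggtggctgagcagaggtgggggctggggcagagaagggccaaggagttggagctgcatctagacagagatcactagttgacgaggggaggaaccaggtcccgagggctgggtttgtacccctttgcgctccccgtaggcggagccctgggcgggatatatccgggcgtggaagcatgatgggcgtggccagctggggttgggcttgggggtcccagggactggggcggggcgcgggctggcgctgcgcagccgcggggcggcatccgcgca
The Syn1 promoter held the cyclic AMP response element TGACGTCA, starting 159 bases before the gene's start. That motif was in 1.79% of all 32851 promoters and, among the fusion genes, only in Syn1 and Stxbp3. The Stxbp5 promoter held the Egr motif GCGNGGGCG, starting 213 bases before the transcript start on which its window is set. That start lies inside the annotated gene, and so does the motif. The Egr motif was in 5.55% of all promoters and in those of 7 fusion genes (Cplx1, Nsf, Stxbp5, Stxbp5l, Syn2, Syt16 and Vamp4), and its letters overlap those of GC-rich Sp1 sites. The AP-1 motif TGANTCA was in 7.81% of all promoters and in 1 fusion gene's, Syt6. Both strands were searched, and the Rims1 and Stx1a windows held none of the 3 motifs. A match is a run of letters and was not tested as a binding site.

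Among the synaptotagmins, 11 of 17 were tested, of which 2 rose and 1 fell. Syt13 (chr2:92915101-92956051) is an atypical synaptotagmin that lacks the calcium-binding residues of the family. Its lowest, median and highest log2 intensities were 8.42, 8.97 and 9.31 on heterozygous cocaine arrays, and its values on the 5 heterozygous saline arrays were 7.42, 7.92, 8.10, 8.22 and 8.25. On wild-type arrays they were 8.03, 8.81 and 9.10 after cocaine and 7.72, 7.95 and 8.47 after saline. Every heterozygous cocaine array lay above every heterozygous saline array, whereas the wild-type groups overlapped through the 2 lowest cocaine arrays. On average Syt13 was 1.74-fold higher after cocaine (log2 difference 0.80 ± 0.13 SE, adjusted p = 0.001829, limma), and 9 of 12 cocaine arrays exceeded all 11 saline arrays.

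Syt17 (chr7:118380713-118448583), also called B/K protein, is a synaptotagmin of the secretory pathway. It had the largest log2 difference among the 49 genes and was near the detection limit, being detected on 6 of 6 heterozygous cocaine, 2 of 5 heterozygous saline, 5 of 6 wild-type cocaine and 3 of 6 wild-type saline arrays. Its lowest, median and highest log2 intensities were 6.70, 7.59 and 7.89 on heterozygous cocaine arrays, with values of 5.14, 5.68, 6.33, 6.40 and 6.65 on heterozygous saline arrays. In wild type they were 6.28, 6.62 and 7.56 after cocaine and 5.72, 6.40 and 6.66 after saline. The heterozygous groups did not overlap and the wild-type groups did. The average difference was 0.91 ± 0.19 on the log2 scale (adjusted p = 0.007806, limma).

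Syt12 (chr19:4445908-4477143), a synaptotagmin of synaptic vesicles known for phosphorylation by protein kinase A, was the only called gene that fell. Heterozygous cocaine arrays had a lowest, median and highest log2 intensity of 7.98, 8.35 and 8.73, against 8.50, 8.59, 8.66, 8.77 and 8.87 on the heterozygous saline arrays. Wild-type arrays had 8.26, 8.51 and 8.72 after cocaine and 8.59, 8.66 and 8.79 after saline. Only 1 heterozygous and 2 wild-type cocaine arrays lay inside the range of their saline group. It fell by 0.27 ± 0.08 on the log2 scale (adjusted p = 0.04497, limma), and 7 of 12 cocaine arrays lay below all saline arrays. Sytl2 (chr7:90302211-90410719), a Rab27 effector that brings secretory granules to the membrane, rose by 0.38 ± 0.11 (adjusted p = 0.04989). A further Sytl2 probe gave 0.29 with an adjusted p of 0.3747. The fast calcium sensor of release, Syt1, had a difference of 0.10 ± 0.05 by the brightest of its 3 probes (adjusted p = 0.3419), and Syt7, the slow high-affinity sensor, 0.36 ± 0.11 (adjusted p = 0.07141), and neither passed. The dimmer Syt1 probes averaged 13.59 and 12.28 on heterozygous cocaine arrays, against 13.21 and 12.02 on heterozygous saline arrays. In wild type these probes averaged 13.42 and 12.24 after cocaine and 13.39 and 12.03 after saline.

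The plasma membrane SNAREs were represented by 4 tested genes of 8, of which Stx1a rose. Stx1a (chr5:135023482-135051100) encodes the syntaxin of neuronal exocytosis. On heterozygous arrays its lowest, median and highest log2 intensities after cocaine were 11.50, 12.15 and 12.42, and its values after saline were 10.69, 11.02, 11.22, 11.35 and 11.41. On wild-type arrays they were 11.27, 11.71 and 11.99 after cocaine and 11.09, 11.52 and 11.57 after saline. The heterozygous groups did not overlap, and in wild type 5 of 6 cocaine arrays lay above all saline arrays. Its average difference was 0.59 ± 0.11, or 1.5-fold (adjusted p = 0.003948, limma). Stx3, Stx4a and Snap23, which serve fusion in postsynaptic and non-neuronal membranes as well, had differences between 0.03 and 0.09 and did not pass.

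None of the 6 tested vesicle SNAREs passed in limma, while 2 had an unadjusted p under 0.05. Vamp5 (chr6:72368049-72380468), detected on 0 arrays, neighbours the tested Vamp8 (chr6:72385221-72390667) in GRCm38.p6. Vamp2, the main vesicle SNARE of forebrain synapses, had a difference of 0.03 with a 95% interval from -0.10 to 0.16. Vamp1, its close relative, prominent in brainstem and spinal cord, had 0.31 ± 0.09 (adjusted p = 0.0631), and 8 of 12 cocaine arrays exceeded all saline arrays. The 9 endomembrane SNAREs, syntaxins and Snap29 of the Golgi, endosomes and autophagosomes, also gave 0 calls, with 0 at an unadjusted p under 0.05. Nsf, the ATPase that disassembles SNARE complexes, had 0.18 ± 0.07 (adjusted p = 0.1557), and its other probe had the opposite sign, at -0.18.

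Of the 5 syntaxin-binding genes tested, Stxbp5 passed. Stxbp5 (chr10:9755547-9901287), or tomosyn, binds syntaxin and SNAP proteins in place of a VAMP and so limits vesicle priming. Its log2 intensities on heterozygous cocaine arrays had a lowest, median and highest value of 10.12, 10.50 and 10.61, against 9.88, 9.92, 10.16, 10.24 and 10.25 on heterozygous saline arrays. Wild-type values were 9.98, 10.26 and 10.34 after cocaine and 9.87, 10.09 and 10.23 after saline. In each genotype the lowest cocaine array lay inside the saline range and most others lay above it. The difference was 0.26 ± 0.07 (adjusted p = 0.03759, limma), with 8 of 12 cocaine arrays above all saline arrays, and its other probe gave 0.18 with an adjusted p of 0.1893. Complexins gave 0 calls of 2 tested, with Cplx1 at 0.13 ± 0.06 (adjusted p = 0.2506) and Cplx2 at -0.20 ± 0.10 (adjusted p = 0.3414). At an unadjusted p under 0.05 there was 1 of the 2.

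Synapsins tether vesicles to one another and to actin in the reserve pool, and 1 of 3 rose. Syn1 (chrX:20860511-20920918) had a lowest, median and highest log2 intensity of 12.83, 13.30 and 13.43 on heterozygous cocaine arrays, against 12.65, 12.68, 12.88, 12.96 and 13.03 on heterozygous saline arrays. Wild-type values were 12.89, 13.04 and 13.17 after cocaine and 12.66, 12.80 and 13.13 after saline. A single heterozygous cocaine array, number 11, fell within the saline range of its genotype, whereas in wild type only 1 cocaine array exceeded the highest saline array. The difference was 0.30 ± 0.07, or 1.23-fold (adjusted p = 0.02311, limma). A further Syn1 probe gave 0.17 with an adjusted p of 0.1454, Syn2 had 0.06 ± 0.07 and Syn3 had -0.24 ± 0.14, and none of these passed. The vesicle glycoproteins Sv2a and Sv2b had differences of 0.14 ± 0.05 (adjusted p = 0.1426) and 0.32 ± 0.11 (adjusted p = 0.1024). Both had an unadjusted p under 0.05 and neither passed.

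Of the 8 RIM and Munc13 genes of the active zone, 5 were tested, of which 2 rose and 0 fell. Rims1 (chr1:22285972-22806158), the RIM scaffold that gathers calcium channels, Rab3 and Munc13, rose. Heterozygous cocaine arrays had a lowest, median and highest log2 intensity of 10.99, 11.34 and 11.77, and heterozygous saline arrays had 10.73, 10.74, 10.87, 10.91 and 11.16. Wild-type arrays had 11.19, 11.39 and 11.60 after cocaine and 10.81, 10.93 and 11.02 after saline. The wild-type groups did not overlap, and in heterozygotes 4 of 6 cocaine arrays lay above all saline arrays. The difference was 0.47 ± 0.08, or 1.38-fold (adjusted p = 0.00276, limma), and the other Rims1 probe gave 0.43 (adjusted p = 0.03409). Unc13b (chr4:43046193-43264873), which encodes Munc13-2, rose by 0.50 ± 0.12 (adjusted p = 0.02197). Its lowest, median and highest values were 9.00, 9.71 and 10.13 on heterozygous cocaine arrays, with 8.74, 8.78, 8.78, 8.79 and 9.00 on heterozygous saline arrays. In wild type they were 8.98, 9.40 and 9.74 after cocaine and 8.91, 9.21 and 9.44 after saline, so that the groups overlapped over much of their range, whereas 5 of 6 heterozygous cocaine arrays lay above all heterozygous saline arrays.

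Unc13c (chr9:73479422-74008155), which encodes Munc13-3, was read by 3 probes that differed in their call. The probe with the highest mean intensity, which stands for the gene in the counts, gave -0.39 ± 0.14 (adjusted p = 0.1156), another gave -0.67 ± 0.13 (adjusted p = 0.005266, limma) and the third gave -0.57 ± 0.17 (adjusted p = 0.06717). By the first of these, the lowest, median and highest values were 11.12, 11.59 and 12.29 on heterozygous cocaine arrays, against 11.97, 12.20, 12.34, 12.41 and 12.62 on heterozygous saline arrays. Wild-type values were 11.78, 12.23 and 12.50 after cocaine and 11.84, 12.32 and 12.80 after saline. Of the heterozygous cocaine arrays 4 lay below all heterozygous saline arrays, while wild type overlapped almost fully. Rims3 and Rims2, a short and a long RIM isoform gene, had -0.21 ± 0.07 (adjusted p = 0.0667) and -0.10 ± 0.07 (adjusted p = 0.479). Over all fusion genes, 23 had more than 1 tested probe. For cocaine against saline averaged over the genotypes, the probes shared 1 sign in 18 of them. The exceptions were Nsf, Stx8, Stxbp4, Syt11 and Vamp3.

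**Figure D2:**
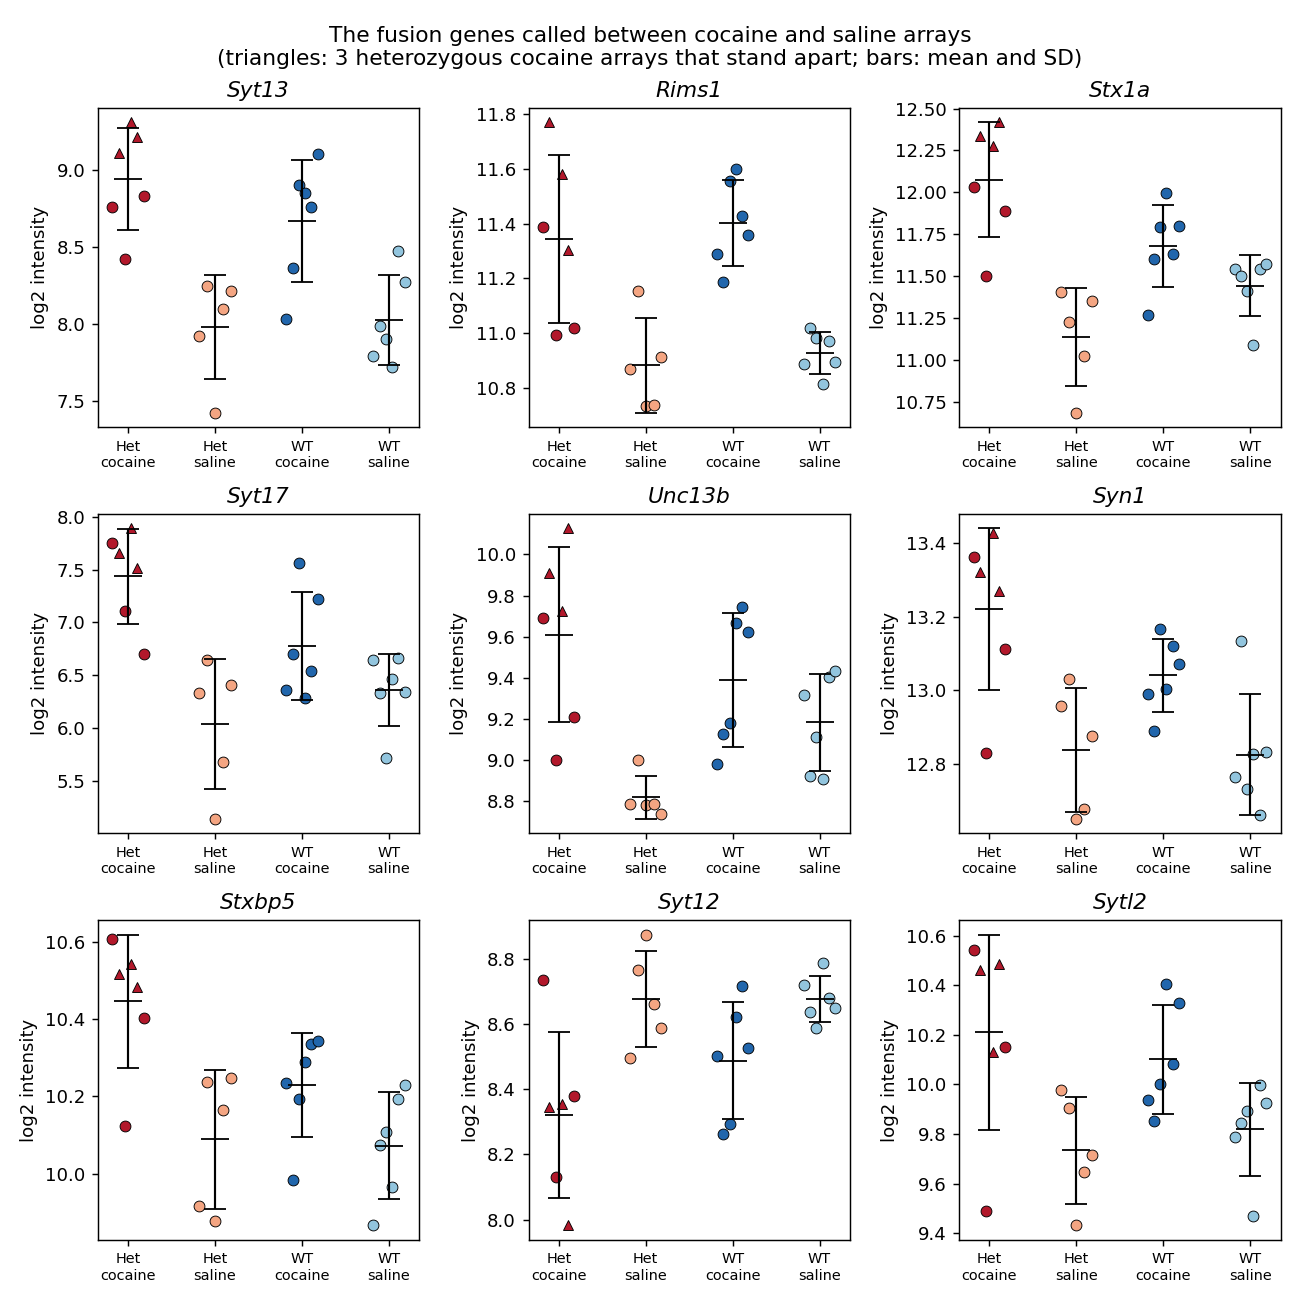
Log2 intensity of the 9 called fusion genes on each array, by group, with mean and SD as bars; triangles mark heterozygous cocaine arrays 9, 16 and 19, and each panel has its own vertical axis. The triangles are the 3 highest points of the heterozygous cocaine group for Syt13 and Stx1a, and for Rims1 the wild-type cocaine and saline arrays do not overlap.

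The count of 9 depended on a few arrays. Leaving out arrays 9, 16 and 19 left 2 calls, Rims1 (0.36 ± 0.08, adjusted p = 0.03502) and Syt13 (0.67 ± 0.14, adjusted p = 0.04681). The differences of Stx1a (0.45 ± 0.11, adjusted p = 0.07893), Syt17 (0.78 ± 0.21, adjusted p = 0.1266) and Unc13b (0.34 ± 0.12, adjusted p = 0.2634) then missed the threshold in limma. All 9 kept their sign and became smaller. The 3 arrays were picked at the cocaine end of the first principal component, so smaller differences without them were partly built in. Over all genes the fit without them called 49 of 10138 (0.483%), beside 4.45% with all arrays. Leaving out single arrays gave 5 to 12 calls, with 5 without heterozygous saline array 14 or 18, which also ended the call of Syn1. Syt13, Rims1, Stx1a, Syt17 and Unc13b stayed called without any 1 array (adjusted p at most 0.04776), whereas Stxbp5, Syt12 and Sytl2 lost the call without 14, 17 and 18 of the 23 arrays. With the excitatory score as a covariate the fit of all 23 arrays gave 0 calls, with 4 of 49 at an unadjusted p under 0.05. It gave 0, with 5 of 49, when Neurod1 was left out of the score. Of all 10138 genes these 2 fits called 9 and 11. With all 9 markers in the score Syt13 was then at 0.26 ± 0.09, Rims1 at 0.21 ± 0.09 and Stx1a at 0.17 ± 0.08 (adjusted p = 0.9995 each), and Unc13c was at 0.03 ± 0.14, with the sign turned. Syt12 moved less than the others, to -0.23 ± 0.11. The part that the cellular makeup of the punch had in these differences was not tested.

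**Figure D3:**
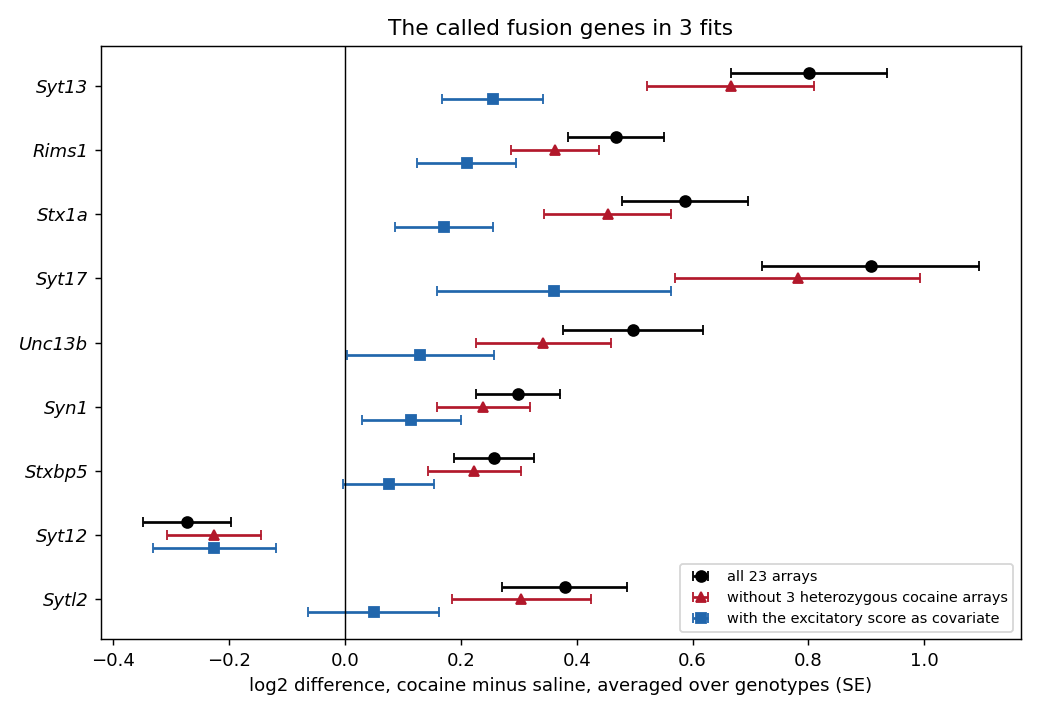
Log2 difference (cocaine minus saline, averaged over genotypes, with SE) of the 9 called fusion genes in the fit of all 23 arrays, without 3 heterozygous cocaine arrays, and with the excitatory score added as a covariate. Syt13 lies at 0.80, 0.67 and 0.26 in the 3 fits, and Syt12 lies at -0.27, -0.23 and -0.23.

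Within the genotypes, cocaine against saline asked whether heterozygotes and wild type responded. In heterozygotes 21 of 49 genes had an unadjusted p under 0.05, beside 1676 of all 10138. After adjustment 5 of the 49 rose and 0 fell, beside 2.68% of all genes called (1.95% higher and 0.73% lower). These were Syt17 (1.40 ± 0.27, adjusted p = 0.008029, with a signal above background on only 2 of 5 saline arrays), Syt13 (0.96 ± 0.20, adjusted p = 0.0123), Stx1a (0.94 ± 0.16, adjusted p = 0.004318), Unc13b (0.79 ± 0.18, adjusted p = 0.0194) and Rims1 (0.46 ± 0.12, adjusted p = 0.04528), all by limma. Stx1a and Syt17 stayed called without any 1 array, whereas Rims1 lost this call without any 1 of 16 of the 23 arrays (adjusted p up to 0.1373), Unc13b without array 9, 14, 16, 18 or 19 and Syt13 without array 14. Without arrays 9, 16 and 19 the count was 0, beside 1 of all 10138 genes. Of the 49 genes 7 then had an unadjusted p under 0.05, and Stx1a stood at 0.67 ± 0.17 (adjusted p = 0.3201). The count was 3 without array 9, 16, 18 or 19, 2 without array 14 and 9 without array 11. It was 2 (Stx1a and Syt13) when the heterozygous groups were fitted alone, beside 48 of all 10138 genes.

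In wild type 0 of 49 genes passed in limma, beside 0.109% of all genes called. At an unadjusted p under 0.05 there were 5 of the 49, beside 870 of all 10138 genes. The 3 with the smallest p were Rims1 (0.47 ± 0.11, adjusted p = 0.2227), Syt13 (0.64 ± 0.19, adjusted p = 0.3911) and Vamp1 (0.32 ± 0.13, adjusted p = 0.5425). All 6 wild-type cocaine arrays lay above all saline arrays for Rims1, 4 of 6 for Syt13 and 5 of 6 for Vamp1. Vamp1 ran at a lowest, median and highest log2 intensity of 8.74, 8.94 and 9.11 after cocaine and of 8.12, 8.71 and 8.82 after saline. The cocaine differences in heterozygotes and wild type had the same sign for 34 of the 49 genes, 69.4%, beside 62.8% of all genes tested. The heterozygous difference was the larger in size for 33 of the 49, 67.3%, beside 59.3% of all genes.

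**Figure D4:**
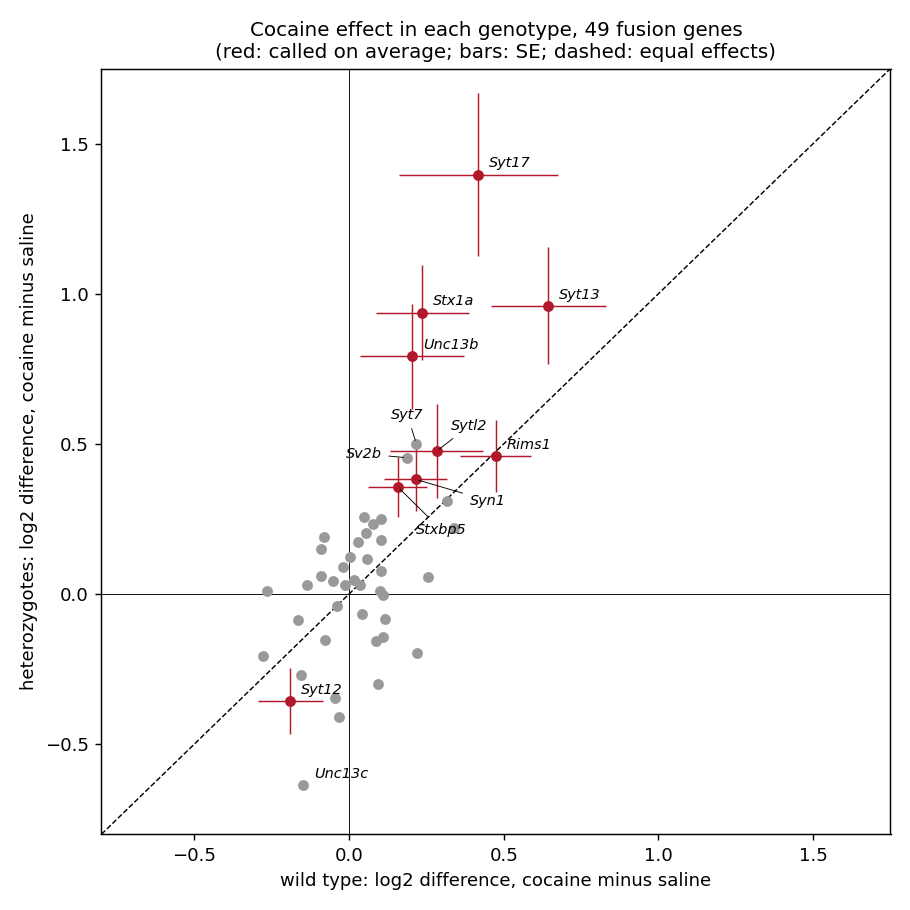
Log2 difference (cocaine minus saline) of the 49 fusion genes in heterozygotes (vertical axis) and in wild type (horizontal axis); red points, with SE bars, are the 9 genes called on average, and the dashed line marks equal differences. Stx1a lies at 0.94 in heterozygotes and 0.24 in wild type, and Rims1 lies on the line at 0.46 and 0.47.

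The interaction of genotype and cocaine, the test of that difference, passed for 0 of 49 fusion genes and 0% of all genes in limma. At an unadjusted p under 0.05 there were 4 of the 49 and 488 of all 10138. The 3 with the smallest p were Stx1a (0.70 ± 0.22, 95% interval from 0.25 to 1.15), Rims2 (-0.39 ± 0.14) and Syt17 (0.98 ± 0.37), each with an adjusted p of 0.9268. For Stx1a the cocaine difference was 0.94 in heterozygotes and 0.24 in wild type, and for Syt17 it was 1.40 in heterozygotes and 0.42 in wild type. For Rims2, a RIM scaffold like Rims1, it was -0.30 in heterozygotes and 0.09 in wild type. A dimmer Rims2 probe did not share this pattern. It averaged 6.86 after cocaine and 6.88 after saline in heterozygotes, against 6.78 and 7.07 in wild type. That heterozygotes respond otherwise than wild type is thus not shown for any fusion gene.

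Heterozygotes against wild type asked whether 1 disrupted Foxp2 copy goes with other levels of these genes. Averaged over the injections, 0 of 49 passed in limma beside 0% of all genes, with 3 of 49 and 480 of 10138 at an unadjusted p under 0.05. Those 3 were Rims2 (0.19 ± 0.07), Syn3 (-0.35 ± 0.14) and Snap23 (-0.17 ± 0.07), with an adjusted p of 0.9999 each. After cocaine alone 0 of 49 passed, beside 0% of all 10138 genes, and 7 of 49 had an unadjusted p under 0.05. They were led by Stx1a (0.39 ± 0.15, adjusted p = 0.7079), Unc13c (-0.49 ± 0.19, adjusted p = 0.7238) and Syt17 (0.66 ± 0.26, adjusted p = 0.728). After saline alone 0 passed and 3 of 49 had an unadjusted p under 0.05, beside 376 of all 10138 genes. They were Rims2 (0.38 ± 0.10), Unc13b (-0.37 ± 0.18) and Stx17 (0.28 ± 0.14), at an adjusted p of 0.999 each. Rims2 was at 9.71, 9.89, 9.95, 10.09 and 10.15 on the heterozygous saline arrays, against a lowest, median and highest value of 9.32, 9.56 and 9.84 on wild-type saline arrays. On 4 of 5 heterozygous saline arrays it lay above every wild-type saline array. After cocaine its range was 9.40 to 9.80 in heterozygotes and 9.50 to 9.78 in wild type, so that these groups overlapped over most of their range. A dimmer Rims2 probe went the other way after saline, averaging 6.88 on heterozygous and 7.07 on wild-type arrays. The other Stx17 probe also reversed, averaging 6.43 on heterozygous and 6.63 on wild-type saline arrays.

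The same genes were also followed along the marker scores within groups, where differences between injections and genotypes are removed. Per unit of the excitatory score, 7 of 49 genes had a positive slope and 1 a negative one, beside 3.19% of all genes called by limma, 2.38% with a positive and 0.809% with a negative slope. The positive slopes were those of Syt13 (0.78 ± 0.09, adjusted p = 8.619e-06), Stx1a (0.59 ± 0.08, adjusted p = 0.0001531), Rims1 (0.37 ± 0.08), Sv2b (0.48 ± 0.11), Sytl2 (0.47 ± 0.11), Unc13b (0.52 ± 0.13) and Syt17 (0.78 ± 0.20). The negative slope was that of Unc13c (-0.60 ± 0.14, adjusted p = 0.01965). Per unit of the striatal score, Unc13c had a positive slope (1.22 ± 0.32, adjusted p = 0.04142), and Syt7 (-1.17 ± 0.22, adjusted p = 0.005495), Syt13 (-1.22 ± 0.31) and Stx1a (-0.97 ± 0.25) had negative ones, beside 3.14% of all genes called (1.6% positive and 1.54% negative). Syn1, Stxbp5 and Syt12 were called with cocaine but with neither score, and the difference of their slopes from the others was not tested.

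Without arrays 9, 16 and 19 the slopes on the excitatory score passed for 2 genes, Stx1a and Syt13, and those on the striatal score for 0, with 4 at an unadjusted p under 0.05. Over all 10138 genes 59 excitatory and 0 striatal slopes passed without these arrays. Leaving out heterozygous cocaine array 11 alone left 2 excitatory slopes. With Neurod1 left out of the score 7 of the 8 excitatory slopes passed, and that of Syt17 did not (0.75 ± 0.20, adjusted p = 0.05231, limma). For the striatal score the count was 7 without heterozygous cocaine array 3, 1 without wild-type cocaine array 4 or heterozygous cocaine array 11 or 16, and 2 without heterozygous cocaine array 9 or 19 or wild-type cocaine array 24. The slopes rest on arrays and markers that also enter the cocaine comparison and are no independent test of it.

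**Figure D5:**
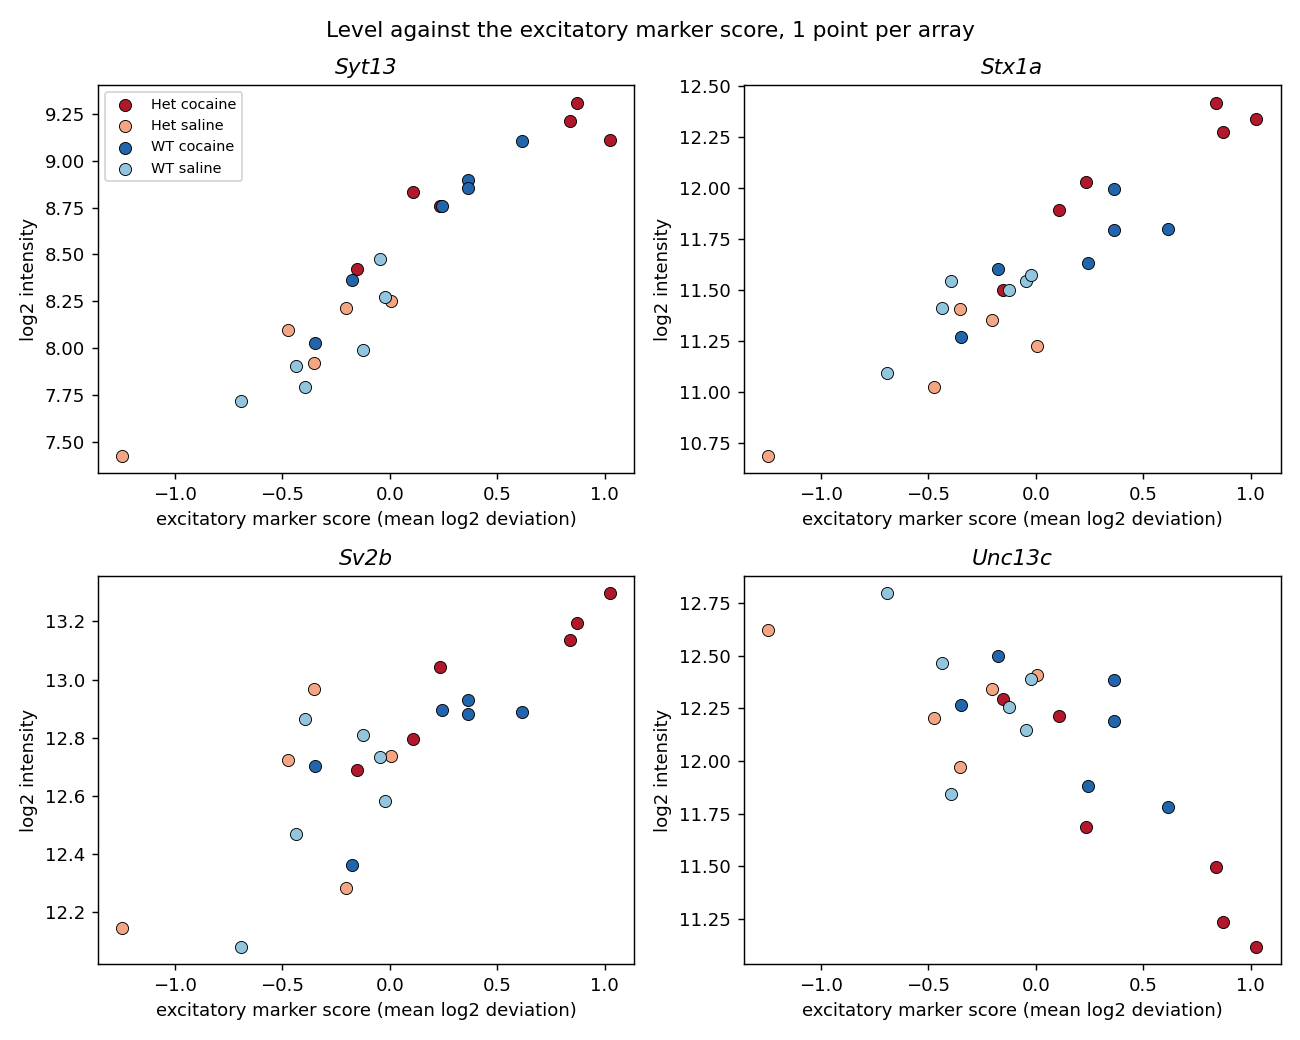
Log2 intensity of Syt13, Stx1a, Sv2b and Unc13c against the excitatory marker score (mean log2 deviation of 9 markers), with 1 point per array and groups by colour. Syt13, Stx1a and Sv2b lie higher at higher scores and Unc13c lies lower, with the heterozygous cocaine arrays reaching a score of 1.03.

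Partner genes outside the family were read from 4 lists. Of 23 tested partners of the active zone and the vesicle, 7 rose with cocaine on average and 0 fell (median 0.12), beside 3.16% of all genes higher and 1.29% lower. They were led by Rab3d (0.41 ± 0.10, adjusted p = 0.02111), a vesicle GTPase, Syp (0.23 ± 0.06, adjusted p = 0.02311), the vesicle protein synaptophysin, and Rph3a (0.43 ± 0.11, adjusted p = 0.02683), the Rab3 effector rabphilin. In heterozygotes 2 of the 23 rose, Rab3d (0.62 ± 0.14) and Cadps2 (0.82 ± 0.22), a priming factor of dense-core vesicles, beside 1.95% of all genes higher. In wild type 0 passed in limma, with 3 at an unadjusted p under 0.05, beside 870 of all 10138 genes. Of 20 genes of vesicle endocytosis only Amph, which links clathrin coats to dynamin, rose, at 0.30 ± 0.08 on average (adjusted p = 0.035) and 0.49 ± 0.11 in heterozygotes. The vesicular proton pump, which energises transmitter loading, gave 0 calls of 14 with 3 at an unadjusted p under 0.05, and the endomembrane SNAREs with their SM proteins gave 0 of 18 with 2, where 1949 of all 10138 genes had such a p. Rab3d, Rph3a, Cadps2 and Amph also had positive slopes on the excitatory score (0.45, 0.48, 0.65 and 0.34 per unit), beside 2.38% of all genes. So did Sncb (0.46), which was called with cocaine, and Napb (0.31) and Sh3gl2 (0.38), which were not. The part of the marker difference in these calls was not tested.

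Females and males were compared in the authors' values, averaged over the 4 groups (12 female and 11 male samples). All males are listed before all females and carry the lower replicate numbers of their group. Sex and the order of the samples therefore cannot be told apart. Of 47 fusion genes 2 were higher in females and 0 lower, beside 1.82% of all genes called by limma, 1.27% higher and 0.55% lower in females. Stxbp4, a syntaxin-4 binding protein first described in glucose transporter traffic, averaged a log2 value of 8.65 in females and 8.35 in males (difference 0.31 ± 0.08, adjusted p = 0.04066). Its 2 other probes had the opposite sign (-0.13 and -0.12). Vamp7, an endosomal and lysosomal vesicle SNARE, averaged 10.92 in females and 10.66 in males (0.27 ± 0.07, adjusted p = 0.04951), and its other probe gave 0.43 (adjusted p = 0.1418). Both calls ended with the replicate block, under which 0 of all 9274 genes were called between the sexes. Almost every replicate number holds a single sex, so the block takes up most of the sex difference and cannot decide on these calls. Without any 1 of 18 of the 23 samples the count was 0 or 1.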

How the data were processed

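The raw table holds bead-array intensities and a detection p-value for each array, per the file headers. Some values lie below 0, so the authors had subtracted a background. The authors' processed values are deposited on a log2 scale, with the same distribution on every array. Which software made them was not stated in the sources at hand. The neqc function of limma 3.58.1 (R 4.3.3, offset 16) corrected and normalized the raw intensities by quantiles, and log2 values were tested. The tested probe of highest mean stood for its gene. A linear model of 4 groups covered all 23 arrays, with moderated two-sided tests and adjustment over all probes tested. Raw columns name no animal, so sex was tested in the authors' values (47 of the 49 genes). Whether replicates came from separate litters is not stated, so p-values measure the spread between these samples.

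The genes, lists, marker scores and tests were chosen with earlier results of these data known. Named are the called fusion genes of each comparison (at most 12), the 3 with the smallest p where 0 were called, up to 3 called genes per partner list and Foxp2. Other genes are named for their role, chosen after their values were seen. The model code was tested on simulated data. Alternatives covered uncorrected background, an offset of 50, other detection filters, the authors' table, array weights, trended and robust moderation, all probes, 2 kinds of block, single sexes, fits of the compared groups alone, the score as covariate and arrays left out.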

Additional observations from a re-analysis of the deposited data

Results flagged for a closer look

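Of 68 groups of values examined for the named fusion genes, 6 held a sample far from the others of its group, where chance flags about 1 in 20. In wild-type saline arrays these were a low Stx1a on array 15 (log2 intensity 11.09, nearest other 11.41), a low Syt17 on array 7 (5.72, nearest 6.33), a low Vamp1 on array 7 (8.12, nearest 8.57) and a high Syn1 on array 5 (13.13, nearest 12.83). In heterozygous saline arrays Unc13b was high on array 6 (9.00, nearest 8.79). In heterozygous cocaine arrays Stx17 was high on array 23 (7.19, nearest 6.77).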

How the results depend on the processing

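Counts of fusion genes are given against 9 called on average after cocaine, 5 in heterozygotes, 2 between the sexes, 8 on the excitatory slope and 4 on the striatal slope. Without arrays 9, 16 and 19 they were 2 on average, 0 in heterozygotes, 2 on the excitatory and 0 on the striatal slope. Over all 10138 genes, calls then went from 451, 272, 323 and 318 to 49, 1, 59 and 0. With the excitatory score as covariate the fusion gene counts were 0 on average and 0 in heterozygotes, beside 9 and 0 of all genes. They were 0 and 0 with Neurod1 left out of it, beside 11 and 0, an alternative chosen after seeing the data. Male samples alone gave 0 on average and 0 in heterozygotes, beside 6 and 0 of all 9274 genes (authors' values). Female samples alone gave 5 and 0, beside 113 and 0 of all genes. A difference between the sexes in the cocaine response was not tested. The heterozygous groups alone gave 2. With no filter the slopes gave 5 (excitatory) and 1 (striatal), and the striatal slope gave 7 with an offset of 50, with trended and robust moderation and with blocks of 6 array numbers. Leaving out 1 array gave 5 to 12 calls on average, 2 to 9 in heterozygotes, 2 to 9 on the excitatory and 1 to 7 on the striatal slope, and leaving out 1 sample 0 to 3 between the sexes. The counts of 0 in wild type, in the 3 genotype comparisons and in the interaction were 0 under every alternative run.

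Replicate numbers did not pair the samples throughout: deviations of 33 same-number pairs correlated with r from -0.26 to 0.42, and 13 exceeded 0.1. All 6 pairs of number 1 exceeded 0.1 (0.14 to 0.42), and 7 of 23 samples correlated best with a sample of their own number. The replicate block was run in the authors' values, where it gave 7 on average, 5 in heterozygotes, 0 in wild type and 0 between the sexes, against 8, 4, 0 and 2 in those values with no block. For the sexes the block decides nothing, since almost every replicate number holds a single sex. Of the values the naming rule picked, 0 reversed. Dim genes such as Syt17, Syn3 and Stxbp3 rest on signal near background. The causes of these shifts were not tested.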
